A study of Mus musculus with 6 samples.

Results

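The skeletal muscle sarcomere and calcium genes are 36 genes of the contractile apparatus of striated muscle and of the calcium system that drives it, followed here in the retina of mice injected with titanium dioxide nanoparticles. They were chosen by name: the non-control probes of the array whose gene name is one of the 36. All 36 were found, on 47 of 39429 probes, and all 36 passed the filter on dim signals, out of 26153 genes tested. Of these, 13 belong to fast muscle, 6 to slow muscle and 7 to calcium handling, with 2 genes, Atp2a1 and Casq1, in both the fast and the calcium group; the others encode the perinatal myosin, Z disc and giant proteins, energy and oxygen proteins, skeletal actin and a ubiquitin ligase.

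The treated groups were male C57BL/6 mice aged 8 weeks whose right eye had received the nanoparticles in the vitreous 7 days earlier, at a dose labelled 10PTC, 10 times the lower one, or at the lower dose labelled PTC. Controls were mice of the same kind injected with phosphate-buffered saline (PBS). Each group had 12 mice, retinas were pooled by 4, and each of the 3 pools per dose was hybridised in Cy5 on a 2-colour array with PBS control RNA in Cy3, with no dye swap. Values are given as normalized intensity in each channel, in arbitrary units, and as the log2 ratio of the treated pool over the control on the same array, so that a value below 0 means less in the treated pool.

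A muscle fibre contracts when myosin of the thick filament pulls on actin of the thin filament, and troponin on the thin filament makes this depend on calcium released from the sarcoplasmic reticulum. Fast and slow fibres use different genes for myosin, its light chains, troponin and the calcium pump. The neural retina contains no skeletal muscle, while the muscles that move the eye attach to the outside of the globe and are known for a wide mix of fibre types, developmental and perinatal myosins included.

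The 6 arrays lay on 2 slides, with PTC replicates 1 and 2 on slide 1 and PTC replicate 3 and all 10PTC replicates on slide 2. On single arrays 71.0% to 85.5% of gene probe spots passed the scanner software's test against background, and saturation was found on none. The labelled tissue was present in both channels: all 10 rod photoreceptor markers and all 12 inner retina markers were measured. Summed rod signals lay at 91.3% to 135% of the control channel. Summed inner retina signals lay at 65.7% to 87.8% of it, below the control on all 6 arrays. Replicates are pools of separate mice. The p-values measure the spread among arrays, each a treated pool against a single kind of control. If all arrays carried the same control RNA, which the labels do not say, they leave out the spread between control pools. A dye effect on a gene cannot be told apart from treatment. In a tissue sample, fewer cells of a type and less RNA per cell cannot be told apart either.

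Most of the 36 genes were lower in retinas of both doses than in PBS controls. At 10PTC 30 of 36 were lower, 1 was higher and 5 did not pass an adjusted p of 0.05 in limma, where 13.3% of all genes were lower and 14.4% were higher. At PTC 31 of 36 were lower, 1 was higher and 4 did not pass, where 16.3% of all genes were lower and 16.9% were higher. The median log2 ratio of the 36 was -1.52 at 10PTC and -1.92 at PTC, and that of all genes was -0.00 at each dose. Of the 36, 13 were lower by 4-fold or more at 10PTC and 18 at PTC. On single arrays, 32 genes lay below 0 on all 6, Cacng1 lay above 0 on all 6, and Tnnt1, Jph2 and Trim63 had mixed signs. Cacng1, the higher gene at each dose, passed the filter through the treated channel alone. In 30 genes every treated signal lay below every control signal. The 4-fold, single-array and non-overlap counts were made for the members alone, so no share over all genes stands beside them.

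**Figure D1:**
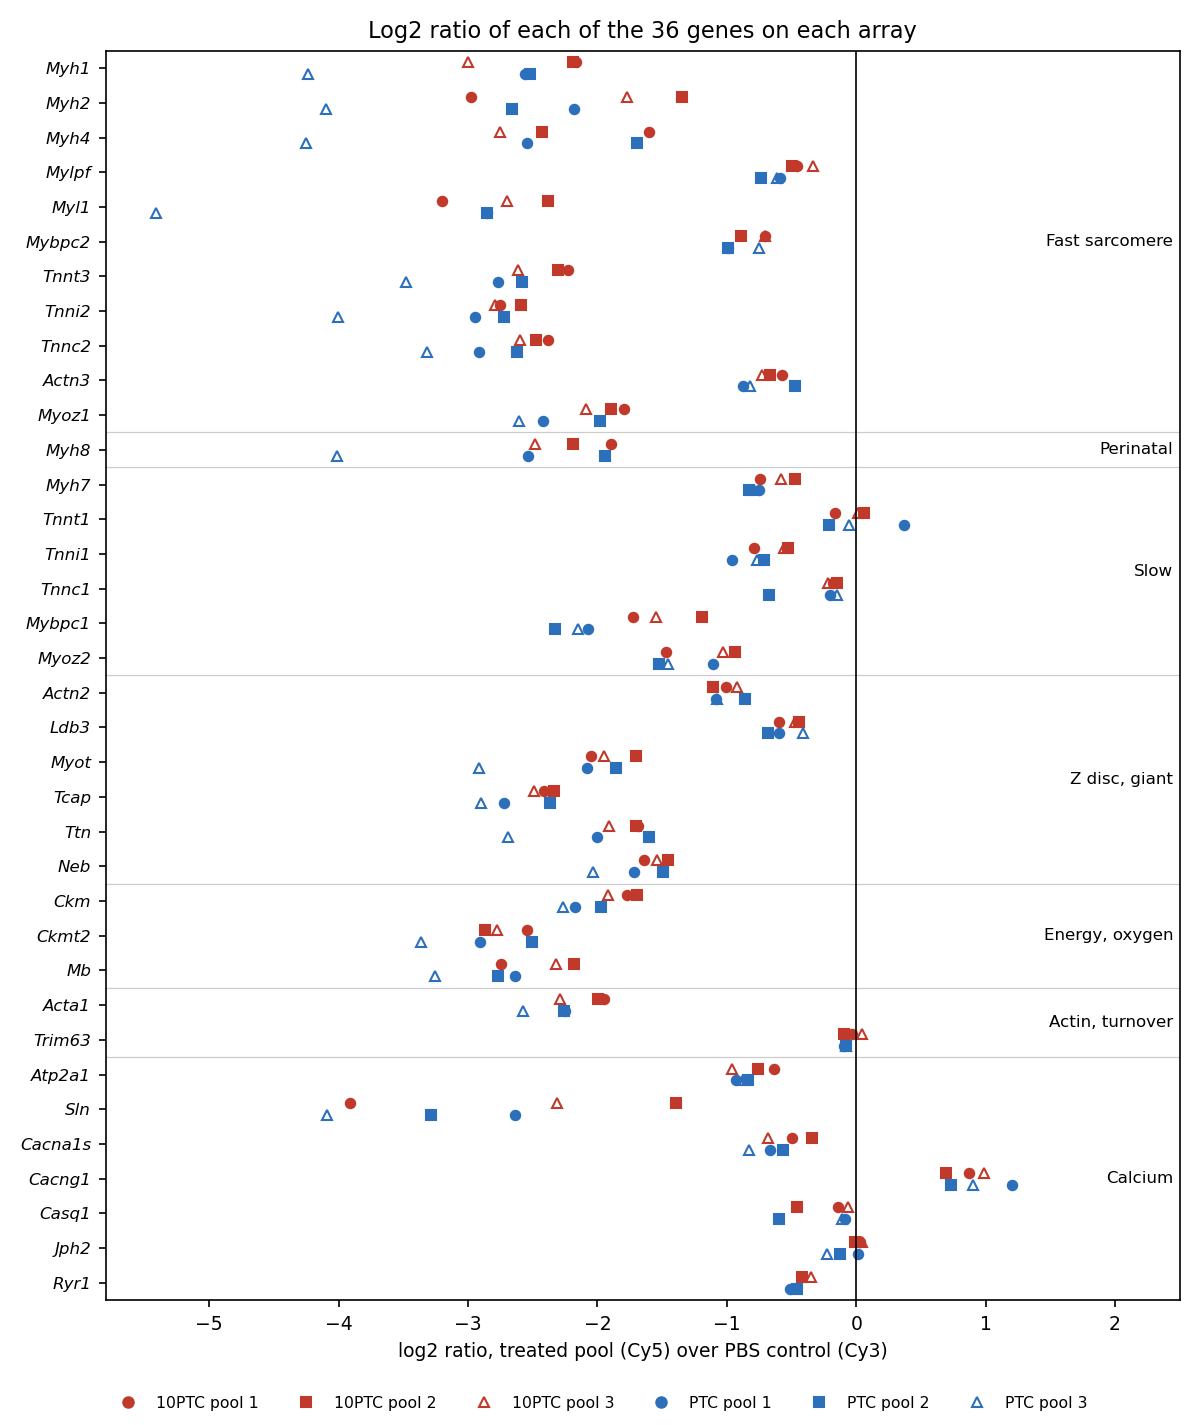
Log2 ratio of the treated pool over the PBS control (horizontal axis) for each of the 36 genes (rows, grouped by role), with 1 point per array, red for 10PTC above blue for PTC. Most rows lie left of 0, Tnnt1, Trim63 and Jph2 lie at 0, Cacng1 lies right of it, and the open blue triangle of PTC replicate 3 is the leftmost point of 20 rows.

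The fast myosins and their light chain fell far, and with Sln they differed most between pools. Myh4, the heavy chain of the fastest fibres, had signals of 2007, 1047 and 881 units in the 10PTC pools and of 1045, 1819 and 317 in the PTC pools, against 5634 to 6100 in the control channel. All 6 pools lay below every control value, with PTC replicate 3 lowest. Its mean log2 ratio was -2.26 ± 0.59 at 10PTC (SD, n = 3; limma adjusted p = 0.0109) and -2.83 ± 1.30 at PTC (adjusted p = 0.00399).

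Myh2, the heavy chain of fast oxidative fibres, had 245, 801 and 552 units in the 10PTC pools and 399, 280 and 108 in the PTC pools, against 1773 to 2037 in the control channel. Here 10PTC replicate 1, the highest pool for Myh4, was the lowest of its dose. Myh1, another fast heavy chain, had 464, 458 and 255 units in the 10PTC pools and 408, 418 and 104 in the PTC pools, against 1966 to 2404 in the control channel. Its ratio averaged -2.45 ± 0.47 at 10PTC and -3.11 ± 0.98 at PTC (SD, n = 3 each; limma adjusted p of 0.00367 and 0.00135). For Myh2 the mean was -2.03 ± 0.85 at 10PTC and -2.98 ± 1.00 at PTC, with limma adjusted p of 0.0115 and 0.00267.

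Myl1, a light chain of fast myosin, was far lower at both doses. Its signals were 1383, 2672 and 1940 units in the 10PTC pools and 2105, 2113 and 297 in the PTC pools, against 12624 to 15236 in the control channel. The groups did not overlap, and PTC replicate 3 stood about as far below the other pools as those stood below the control. The mean was -2.76 ± 0.42 at 10PTC, which is 6.78-fold lower, and -3.71 ± 1.48 at PTC, which is 13.0-fold lower (SD, n = 3; limma adjusted p of 0.00715 and 0.00225).

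The size at PTC rests in part on 1 array. Without PTC replicate 3 the PTC ratio was -2.85 for Myl1, -2.12 for Myh4, -2.42 for Myh2 and -2.54 for Myh1, each still called in limma. Without 10PTC replicate 1, Myh2 (-1.56, limma adjusted p = 0.0801) and Myl1 (-2.54, limma adjusted p = 0.0635) no longer passed at 10PTC. Without 10PTC replicate 3, Myh4 (-2.02, limma adjusted p = 0.0772) and Myh2 (-2.16, limma adjusted p = 0.059) no longer passed at 10PTC.

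The other fast thick-filament members had dim probes and small ratios. Mylpf, the regulatory light chain of fast fibres, had 120 to 135 units in the 10PTC pools and 108 to 118 in the PTC pools, against 163 to 186 in the control channel. Mybpc2, the fast myosin-binding protein C, had 153 to 178 units in the 10PTC pools and 168 to 196 in the PTC pools, against 282 to 390 in the control channel. Both fell at both doses, Mylpf by 0.43 and 0.65 and Mybpc2 by 0.77 and 0.91 on the log2 scale at 10PTC and PTC, with limma adjusted p of 0.00268 or less. With the scanner software's processed signals Mylpf lay at -0.74 at 10PTC, where its call was lost (limma adjusted p = 0.0517), and at -1.63 at PTC. Myh8, the perinatal heavy chain that adult eye muscles retain, lay with the bright fast myosins. Its signals were 1784, 1467 and 1211 units in the 10PTC pools and 1192, 1772 and 412 in the PTC pools, against 6632 to 6899 in the control channel. The mean ratio was -2.19 ± 0.29 at 10PTC and -2.83 ± 1.06 at PTC (SD, n = 3; limma adjusted p of 0.00533 and 0.00185), and -2.24 at PTC without replicate 3.

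The fast troponins fell as far as the myosins with a smaller spread. Tnnc2, the calcium-binding subunit of fast muscle, had 3445, 3112 and 3015 units in the 10PTC pools and 2496, 3018 and 1876 in the PTC pools, against 17302 to 18816 in the control channel. Tnni2, the inhibitory subunit, had 3286, 3902 and 3258 units in the 10PTC pools and 2573, 2905 and 1408 in the PTC pools, against 19190 to 23457 in the control channel. Their mean ratios were -2.48 ± 0.11 and -2.71 ± 0.11 at 10PTC and -2.95 ± 0.35 and -3.22 ± 0.68 at PTC (SD, n = 3; limma adjusted p of 0.00101 or less). PTC replicate 3 was again lowest for each.

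Tnnt3, the tropomyosin-binding subunit of fast muscle, was read by a pair of overlapping probes, which are shown because both read nearly the same stretch of the transcript. Both lie on chromosome 7 in the array design's mm9 coordinates, on the plus strand, at 149698467 to 149698526 and, across 1763 bases, at 149698500 to 149700262. The capitals mark the 27 bases they share.
Tnnt3 brighter probe: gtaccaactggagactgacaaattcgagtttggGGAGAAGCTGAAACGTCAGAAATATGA
Tnnt3 dimmer probe: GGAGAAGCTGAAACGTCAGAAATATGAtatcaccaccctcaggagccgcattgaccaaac
The brighter probe gave mean ratios of -2.38 at 10PTC and -2.95 at PTC, and the dimmer one gave -2.61 and -3.25. Each fell below the control on all 6 arrays.

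Acta1, the actin of the skeletal thin filament, had the steadiest control signal of the 36. It read 483, 479 and 388 units in the 10PTC pools and 399, 395 and 318 in the PTC pools, against 1870 to 1911 in the control channel. The ratio was -2.08 ± 0.18 at 10PTC and -2.36 ± 0.18 at PTC (SD, n = 3; limma adjusted p of 0.000122 and 4.18e-05). Actn3, the alpha-actinin of fast fibres, had 118 to 135 units in the 10PTC pools and 108 to 153 in the PTC pools, against 191 to 242 in the control channel, and fell by 0.66 and 0.72 on the log2 scale (limma adjusted p of 0.00265 and 0.00145).

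The slow group did not move as one. Mybpc1, the slow myosin-binding protein C, had 334, 470 and 386 units in the 10PTC pools and 256, 228 and 252 in the PTC pools, against 1075 to 1146 in the control channel. The 3 PTC pools lay below all 10PTC pools, but the difference between doses did not pass the test over all genes (0.70, limma adjusted p = 0.565). Its ratio was -1.49 ± 0.27 at 10PTC and -2.19 ± 0.13 at PTC (SD, n = 3; limma adjusted p of 0.000584 and 0.000103).

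Tnnt1, the slow troponin T, did not pass at either dose although both its channels were read well above background on each of the 6 arrays. Its signals were 6886, 8172 and 7914 units in the 10PTC pools and 10271, 6867 and 7473 in the PTC pools, against 7724 to 7957 in the control channel. The pools lay on both sides of the control values. The mean ratio was -0.03 ± 0.12 at 10PTC and 0.04 ± 0.30 at PTC (SD, n = 3; limma adjusted p of 0.853 and 0.816), with a limma standard error of 0.10 for each.

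Myh7, the slow and cardiac beta myosin heavy chain, had 228 to 268 units in the 10PTC pools and 229 to 265 in the PTC pools, against 371 to 446 in the control channel. Its ratio was -0.60 ± 0.14 at 10PTC and -0.79 ± 0.04 at PTC (SD, n = 3; limma adjusted p of 0.00139 and 0.000553). Myoz2, a calsarcin of slow and cardiac Z discs, fell by 1.15 and 1.36 on the log2 scale, and Tnni1, the slow troponin I, fell by 0.63 and 0.81. With processed signals the ratios of Myoz2 were -1.99 and -3.16 and those of Tnni1 were -1.59 and -1.98, at 10PTC and PTC. Tnnc1, the troponin C of slow and cardiac fibres, had -0.18 ± 0.03 at 10PTC (adjusted p = 0.187) and -0.34 ± 0.29 at PTC (adjusted p = 0.0302 in limma, SD, n = 3). The PTC call of Tnnc1 was lost in the replicate block, the slide block and several other alternatives, with limma adjusted p up to 0.217.

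The fast genes had a median log2 ratio of -2.03 at 10PTC and -2.83 at PTC, and the slow genes one of -0.61 and -0.80. Of the 13 fast genes 12 were lower at each dose, all but Casq1, and 4 of 6 slow genes were lower at 10PTC and 5 of 6 at PTC. These medians mix bright and dim probes. Among the 18 brighter members, by mean intensity over both channels, were 8 fast genes with a median of -2.42 at 10PTC and -2.97 at PTC, and 2 slow genes, Mybpc1 and Tnnt1. Among the 18 dimmer ones were 5 fast genes with a median of -0.66 at 10PTC and -0.72 at PTC, and 4 slow genes with a median of -0.61 and -0.80. Among the dimmer genes the fast and slow medians were thus close to each other at both doses, and among the brighter ones both slow genes lay above the fast range of -2.76 to -1.92 at 10PTC.

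**Figure D2:**
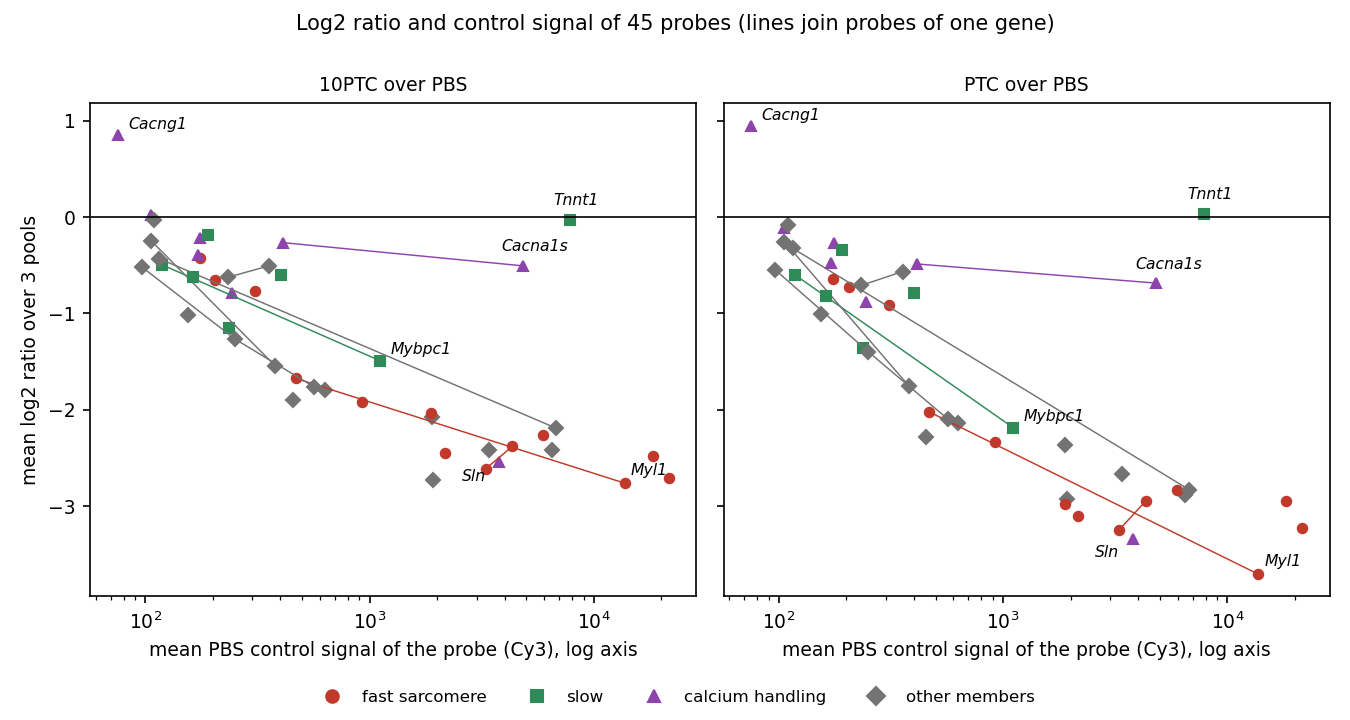
Mean log2 ratio over 3 pools at 10PTC (left) and PTC (right) against the mean PBS control signal (log axis) of the 45 member probes that passed the filter, with symbols for the fast, slow, calcium and other members and lines between probes of one gene. Ratios lie further below 0 at brighter probes, with Tnnt1 and Cacna1s as the bright exceptions, and dimmer probes of Myh8, Ttn, Neb, Mybpc1 and Myl1 lie nearer to 0; Atp2a1 and Casq1 carry the calcium symbol.

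The link of ratio and brightness was also seen within genes. In all, 9 members had several probes. The 2 probes of Myh8, at 6738 and 115 units in the control channel, gave -2.19 and -0.43 at 10PTC and -2.83 and -0.33 at PTC. The 3 titin probes that passed, at 567, 251 and 96.6 units, gave -1.77, -1.27 and -0.52 at 10PTC and -2.10, -1.40 and -0.55 at PTC. In both genes a dimmer probe returned a smaller ratio, as in Neb, Mybpc1, Myl1 and Cacna1s, while in Tnnt3 and Ldb3 the dimmer probe gave the larger one. Across the 36 genes the Spearman correlation of the mean ratio with brightness was -0.69 at 10PTC and -0.67 at PTC. With an offset of 0 in place of 50 units it was -0.63 and -0.58. With the scanner software's own processed signals, which add no such offset, it was -0.50 and -0.39. These are descriptions over genes that share arrays. The processed signals moved the fold of 6 members by over 1.5 times at 10PTC and of 13 at PTC, all but Cacng1 further below 0. Actn2, an alpha-actinin of striated muscle, had a dim probe that passed the filter only through the control channel. The call of Actn2 is thus not independent of the filter. Its ratio at 10PTC was -1.01 ± 0.09 (SD, n = 3; limma adjusted p = 0.000432), and at PTC its treated signal was not well above background on any array, which gives only that it was at least 2.01-fold lower (limma adjusted p = 0.000293).

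The proteins of the Z disc and the giant proteins fell together, 7 of 7 at each dose, with a median log2 ratio of -1.77 at 10PTC and -2.10 at PTC. Tcap, which caps titin at the Z disc, had 609, 692 and 602 units in the 10PTC pools and 546, 694 and 416 in the PTC pools, against 3105 to 3611 in the control channel. It was 5.33-fold lower at 10PTC and 6.34-fold lower at PTC (limma adjusted p of 9.34e-05 and 4e-05). Neb, the ruler of the thin filament, lay at -1.54 ± 0.09 and -1.75 ± 0.27, and Ttn, the molecular spring between Z disc and thick filament, at -1.77 ± 0.12 and -2.10 ± 0.55 (SD, n = 3, at 10PTC and PTC; limma adjusted p of 0.00144 or less). Myot, Myoz1 and Ldb3, which bind at the Z disc, were lower too, with log2 ratios of -1.90, -1.92 and -0.51 at 10PTC and of -2.28, -2.34 and -0.57 at PTC (limma adjusted p of 0.00271 or less). With processed signals Myot lay at -2.72 at 10PTC, where its call was lost (limma adjusted p = 0.0534), and at -4.16 at PTC.

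The energy and oxygen genes fell at both doses, 3 of 3. Mb, the oxygen-binding myoglobin, had 988, 1390 and 1267 units in the 10PTC pools and 1079, 956 and 688 in the PTC pools, against 6307 to 6710 in the control channel. Ckmt2, the mitochondrial creatine kinase of striated muscle, had 324, 244 and 267 units in the 10PTC pools and 274, 362 and 186 in the PTC pools, against 1788 to 2055 in the control channel. No pool of either gene reached the control range, and the mean ratios at 10PTC and PTC were -2.41 ± 0.29 and -2.89 ± 0.33 for Mb and -2.73 ± 0.17 and -2.92 ± 0.43 for Ckmt2 (SD, n = 3). Ckm, the cytosolic muscle creatine kinase, lay at -1.80 ± 0.12 at 10PTC and -2.14 ± 0.15 at PTC (SD, n = 3), and all 3 had limma adjusted p of 0.000377 or less. Trim63, a ubiquitin ligase that marks sarcomere proteins for breakdown, had 97.1 to 103 units in the 10PTC pools and 100.1 to 127 in the PTC pools, against 94.4 to 136 in the control channel, and did not pass at either dose (limma adjusted p of 0.642 and 0.173). At PTC it did pass with the scanner software's processed signals (-0.37, limma adjusted p = 0.0264).

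The calcium genes had the widest range. Sln, a small inhibitor of the calcium pump, had 243, 1358 and 764 units in the 10PTC pools and 633, 404 and 222 in the PTC pools, against 3566 to 3946 in the control channel. The 10PTC pools of Sln differed by more than those of any other member. Its mean ratio was -2.54 ± 1.28 at 10PTC and -3.34 ± 0.73 at PTC (SD, n = 3; limma adjusted p of 0.00818 and 0.00267), and it was -1.85 at 10PTC without replicate 1.

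Cacna1s, the voltage sensor of the T-tubule, was bright and fell little. It had 3303, 3675 and 2944 units in the 10PTC pools and 3110, 3304 and 2810 in the PTC pools, against 4649 to 4978 in the control channel. The ratio was -0.51 ± 0.17 at 10PTC and -0.69 ± 0.13 at PTC (SD, n = 3; limma adjusted p of 0.00482 and 0.00145), and its dimmer second probe gave -0.27 and -0.49. Ryr1, the calcium release channel, and Atp2a1, the calcium pump of fast fibres, fell by 0.40 and 0.79 on the log2 scale at 10PTC and by 0.48 and 0.88 at PTC (limma adjusted p of 0.00162 or less).

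Cacng1, the gamma subunit of the same calcium channel as Cacna1s, was the only member that was higher. It had 119, 120 and 148 units in the 10PTC pools and 196, 135 and 139 in the PTC pools, against 65.2 to 85.1 in the control channel. The control signal was not well above background on any array, so the gene was at least 1.78-fold higher at 10PTC and at least 1.93-fold higher at PTC (limma adjusted p of 0.00198 and 0.00106). Cacng1 passed the filter through the treated channel alone, where it was the higher, so its call is not independent of the filter. Casq1, the calcium store protein of fast fibres, and Jph2, which ties the T-tubule to the reticulum, did not pass: Casq1 lay at -0.22 ± 0.21 and -0.27 ± 0.29 and Jph2 at 0.02 ± 0.03 and -0.11 ± 0.12 (SD, n = 3, at 10PTC and PTC).

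**Figure D3:**
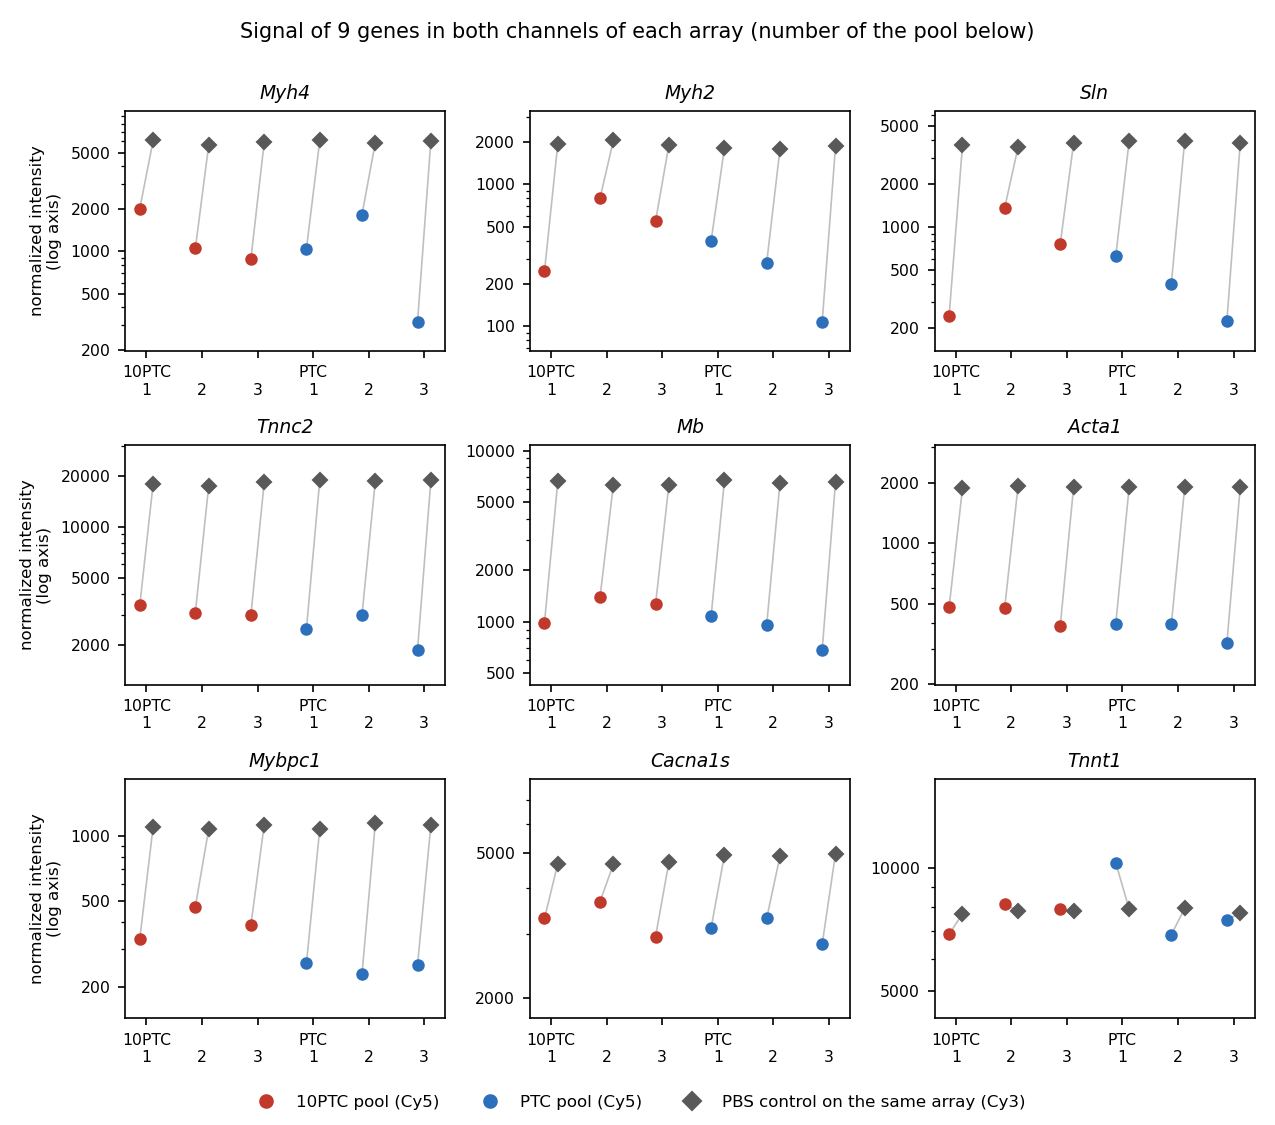
Normalized intensity (log axis) of 9 genes on each array, with the treated pool in Cy5 (red for 10PTC, blue for PTC) joined to the PBS control in Cy3 on the same array (grey diamonds). The control values form a level line in every panel, while the treated values of Myh4, Myh2 and Sln differ between pools in different orders and those of Tnnt1 lie around the control.

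The control channel was nearly constant for these genes and the treated channel was not. The summed signal of the 36 genes was 26.8%, 30.2% and 26.3% of the control on the same array in the 10PTC pools and 26.7%, 26.0% and 17.7% in the PTC pools, while the control sums lay between 110302 and 114369 units. Over 6 arrays the median SD of log2 signal was 0.27 in Cy5 and 0.12 in Cy3 for the members, and 0.16 and 0.11 for all genes. The SD was larger in Cy5 in 31 of 36 members (86.1%), where this held for 72.8% of all genes. Within slide 2, the median SD was 0.26 in Cy5 and 0.04 in Cy3 for the members, and 0.08 and 0.05 for all genes, with the larger SD in Cy5 in 32 of 36 members (88.9%) and 77.6% of all genes. Within slide 1, which held 2 PTC arrays, it was 0.15 and 0.03 for the members and 0.10 and 0.03 for all genes.

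**Figure D4:**
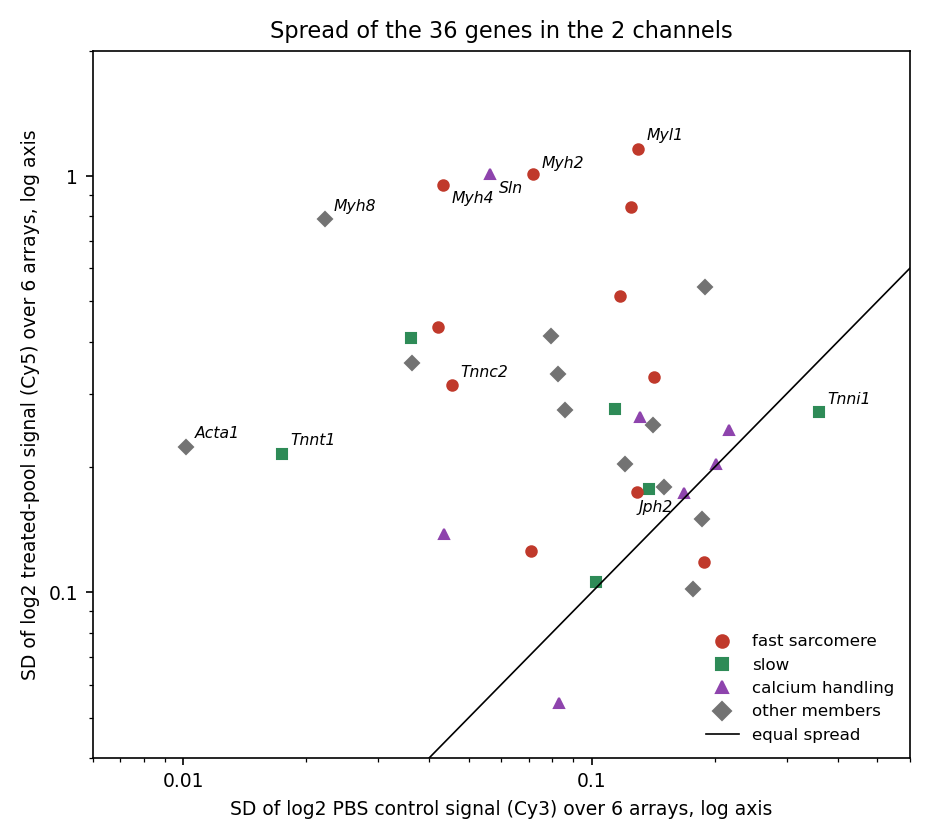
SD over 6 arrays of the log2 treated-pool signal (vertical, log axis) against that of the log2 PBS control signal (horizontal, log axis) for each of the 36 genes. Of the 36 points 31 lie above the line of equal spread, with Myl1, Sln, Myh2 and Myh4 highest, and Tnni1, Ldb3, Mybpc2, Ryr1 and Trim63 lie below it.

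The highest treated value of a gene was at the median 1.65 times its lowest, against 1.21 times for the control values. The range exceeded 2-fold in the treated channel for 12 genes and in the control channel for none. Part of the control's own range followed the slide: Cy3 was higher on slide 1 in 32 of 36 genes, by a median of 0.17 on the log2 scale. These counts were made for the members alone. For all genes too, the median Cy3 SD was smaller within slides 1 and 2 (0.03 and 0.05) than over all 6 arrays (0.11). The labels do not say whether the arrays shared 1 control RNA.

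Pools differed in which fast genes were lowest. The ratio of Myh2 minus that of Myh4 on the same array was -1.38, 1.08 and 0.98 log2 units in the 10PTC pools and 0.37, -0.97 and 0.15 in the PTC pools. For Sln minus Myh4 the differences were -2.31, 1.03 and 0.44 in the 10PTC pools and -0.09, -1.60 and 0.16 in the PTC pools. Replicate 1 of 10PTC and replicate 2 of PTC thus had Myh2 and Sln low relative to Myh4, and replicates 2 and 3 of 10PTC had them high. PTC replicate 3 had the lowest ratio of 20 of the 36 genes, and no gene had its lowest in 10PTC replicate 1.

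The comparison of 10PTC with PTC found none of the 36 genes different in limma, and 0% of all genes in either direction. At an unadjusted p under 0.05 there were 8 of 36 members and 2131 of 26153 genes. The mean ratio was higher at 10PTC than at PTC in 33 of 36 genes. These genes share the same arrays, and the count was not made over all genes. The median difference of the 36 genes was 0.22 on the log2 scale, against 0.003 for all genes. Against PTC replicate 3 alone, which shared the slide with the 10PTC arrays, the median difference of the 36 genes was 0.48. Against PTC replicates 1 and 2 it was 0.12.

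With the slide as a block in the comparisons with PBS, 25 of 36 genes were lower at 10PTC and 30 at PTC, with 1 gene higher at each dose, and the median was -1.19 at 10PTC and -1.996 at PTC. In the same fit 1.56% of all genes were lower and 2.29% higher at 10PTC, and 11.3% were lower and 11.2% higher at PTC. Myh2, Myh4, Sln, Actn3 and Cacna1s were then no longer called at 10PTC. All 10PTC arrays lay on slide 2, so the slide term of this fit came only from PTC replicates 1 and 2 against PTC replicate 3. The shift of the 10PTC values thus rests on the PTC arrays, with a single one of them on slide 2. Within slide 2 alone, 31 genes were lower and 1 higher at 10PTC, and 30 were lower and 1 higher at PTC, where PTC was a single array that is taken to vary like the others, and within slide 1 alone 25 were lower and 0 higher at PTC. Of all genes within slide 2, 17.1% were lower and 18.7% higher at 10PTC, and 2.88% were lower and 3.65% higher at PTC. Within slide 1, 0.486% were lower and 0.616% higher at PTC.

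Promoters of 27 of the 36 genes were in the RefSeq table of GRCm38.p6, as the 250 bases before and 50 after the annotated start. Muscle genes are known to be switched on through E-boxes, bound by the myogenic factors, through MEF2 sites and through CArG boxes, bound by serum response factor. On both strands, an E-box written CANNTG was found in 85.2% of the matched members and 69.3% of all 27025 genes, a MEF2 site in 18.5% and 3.4%, a CArG box in 11.1% and 1.6%, and a TATAAA on either strand in 25.9% and 14.3%. The window before the start is shown for Acta1, Myh4, Tnnc2 and Ckm, which were lower, and for Tnnt1, which was not, with E-boxes, MEF2 sites, CArG boxes and TATAAA in capitals. They lie at chr8:123894776-123895025 (minus strand), chr11:67237562-67237811 (plus), chr2:164779735-164779984 (minus), chr7:19410844-19411093 (plus) and chr7:4515976-4516225 (minus) of GRCm38.p6.
Acta1 promoter: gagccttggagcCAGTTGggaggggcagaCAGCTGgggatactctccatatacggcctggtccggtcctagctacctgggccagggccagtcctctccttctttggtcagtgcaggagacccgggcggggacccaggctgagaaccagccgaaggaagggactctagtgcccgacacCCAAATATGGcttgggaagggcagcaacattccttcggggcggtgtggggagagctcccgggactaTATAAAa
Myh4 promoter: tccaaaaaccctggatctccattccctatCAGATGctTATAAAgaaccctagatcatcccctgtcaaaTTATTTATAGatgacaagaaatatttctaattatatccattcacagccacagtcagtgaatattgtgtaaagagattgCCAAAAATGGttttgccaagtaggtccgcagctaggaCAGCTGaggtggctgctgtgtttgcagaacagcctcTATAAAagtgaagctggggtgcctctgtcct
Tnnc2 promoter: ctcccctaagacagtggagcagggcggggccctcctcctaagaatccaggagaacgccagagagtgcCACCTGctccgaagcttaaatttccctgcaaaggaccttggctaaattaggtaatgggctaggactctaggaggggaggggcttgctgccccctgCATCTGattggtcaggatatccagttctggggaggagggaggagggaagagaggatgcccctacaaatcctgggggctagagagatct
Ckm promoter: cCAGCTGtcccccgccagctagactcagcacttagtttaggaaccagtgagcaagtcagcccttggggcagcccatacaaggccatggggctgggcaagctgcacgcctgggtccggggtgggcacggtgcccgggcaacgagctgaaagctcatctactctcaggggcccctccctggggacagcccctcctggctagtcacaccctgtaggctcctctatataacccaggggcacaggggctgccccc
Tnnt1 promoter: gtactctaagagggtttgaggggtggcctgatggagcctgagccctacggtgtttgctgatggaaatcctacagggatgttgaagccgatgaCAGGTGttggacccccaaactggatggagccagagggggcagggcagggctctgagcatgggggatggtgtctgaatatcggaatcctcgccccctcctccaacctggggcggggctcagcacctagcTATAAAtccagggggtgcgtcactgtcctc
The Acta1 window held 2 E-boxes and 1 CArG box, the Myh4 window 2 E-boxes, 1 MEF2 site and 1 CArG box, the Tnnc2 window 2 E-boxes, and the Ckm and Tnnt1 windows 1 E-box each. MEF2 sites and CArG boxes were thus matched in none of the windows of Tnnc2, Ckm and Tnnt1. A match is a run of letters and not a site shown to be bound.

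Many other skeletal muscle genes were lower too. Of 62 further skeletal muscle genes measured, 41 were lower at each dose, with 4 higher at 10PTC and 3 at PTC, and a median log2 ratio of -0.33 at 10PTC and -0.40 at PTC. Tpm1, a tropomyosin, lay at -1.52 ± 0.07 and -1.73 ± 0.15, Hrc, a calcium-binding protein of the reticulum, at -1.48 ± 0.11 and -1.81 ± 0.13, and Eno3, the muscle enolase, at -1.11 ± 0.13 and -1.20 ± 0.05 (SD, n = 3, at 10PTC and PTC; limma adjusted p of 0.000241 or less). Among 11 muscle regulatory genes 3 were lower and 4 higher at 10PTC, and 4 lower and 3 higher at PTC. Myf6, a myogenic factor of mature fibres, fell by 0.56 and 0.83 on the log2 scale, and Mef2a, a factor also used by neurons, was higher by 0.67 and 0.81.

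Of 9 genes listed for extraocular and developmental muscle, 6 were lower at each dose. The list had a median log2 ratio of -0.35 at 10PTC and -0.51 at PTC, and its highest gene lay at 0.04 and 0.10. Myh13, the heavy chain specific to eye and laryngeal muscles, had no treated signal well above background on any array and was at least 1.92-fold lower at 10PTC and at least 1.74-fold lower at PTC (limma adjusted p of 0.000641 and 0.000837). Myh13 passed the filter through the control channel alone, so its call is not independent of the filter. Myh3, the embryonic heavy chain, had log2 ratios of -3.45, -0.74 and -1.88 in the 10PTC pools and -2.25, -2.95 and -3.72 in the PTC pools. Myh15, a heavy chain of slow eye muscle fibres, had -2.74, -1.19 and -1.29 in the 10PTC pools and -1.94, -2.26 and -2.87 in the PTC pools. For both, 10PTC replicate 1 was the lowest of its dose, as for Myh2 and Sln.

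Markers of other tissues around the eye moved too, and their part in the result was not tested. Of 11 fat genes 9 were lower at each dose, with summed signals at 42.5% to 45.9% of the control in the 10PTC pools and 51.7%, 50.7% and 46.2% in the PTC pools. Of 13 connective tissue genes 8 were lower at 10PTC and 4 at PTC, and the sums lay at 32.8%, 55.2% and 34.8% in the 10PTC pools and at 81.2%, 71.0% and 35.6% in the PTC pools. Ocular surface epithelium genes lay at 36.3%, 97.9% and 45.0% in the 10PTC pools and at 156%, 223% and 48.1% in the PTC pools, with 2 of 8 lower at each dose. The 4 red blood cell genes measured, of 8 listed, lay at 38.7% to 40.2% in the 10PTC pools and at 71.1%, 30.7% and 24.0% in the PTC pools. PTC replicate 3, the lowest for most fast genes, was thus also the lowest PTC pool for these fat, connective tissue, surface and blood sums. Every measured gene of these 4 lists stood well above background in each channel on at least 1 array. Other lists differed. Pigment epithelium sums lay at 99.6% to 141% in the 10PTC pools and at 158%, 122% and 123% in the PTC pools. Lens sums lay at 111% to 187% in the 10PTC pools and at 137%, 84.2% and 203% in the PTC pools, with PTC replicate 3 the highest. Peripheral nerve sums lay at 69.1%, 113% and 76.7% in the 10PTC pools and at 113%, 143% and 82.1% in the PTC pools. For nerve too, PTC replicate 3 was thus the lowest PTC pool. Of 8 genes each, 1 was lower and 3 higher at 10PTC and 0 and 4 at PTC for pigment epithelium, 0 and 0 at 10PTC and 0 and 1 at PTC for lens, and 1 and 0 at 10PTC and 2 and 1 at PTC for nerve.

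Cardiac and smooth muscle genes were mixed. Of 10 cardiac genes 3 were lower and 1 higher at each dose: Actc1, the cardiac actin, fell by 1.40 and 1.65 on the log2 scale, and Tnnt2, the cardiac troponin T, was higher by 1.53 and 0.99. Of 12 smooth muscle and pericyte genes 2 were lower and 1 higher at 10PTC, and 1 lower and 4 higher at PTC. Of 10 rod genes none was lower and 4 were higher at each dose, and of 12 inner retina genes 4 were lower at 10PTC and 6 at PTC.

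**Figure D5:**
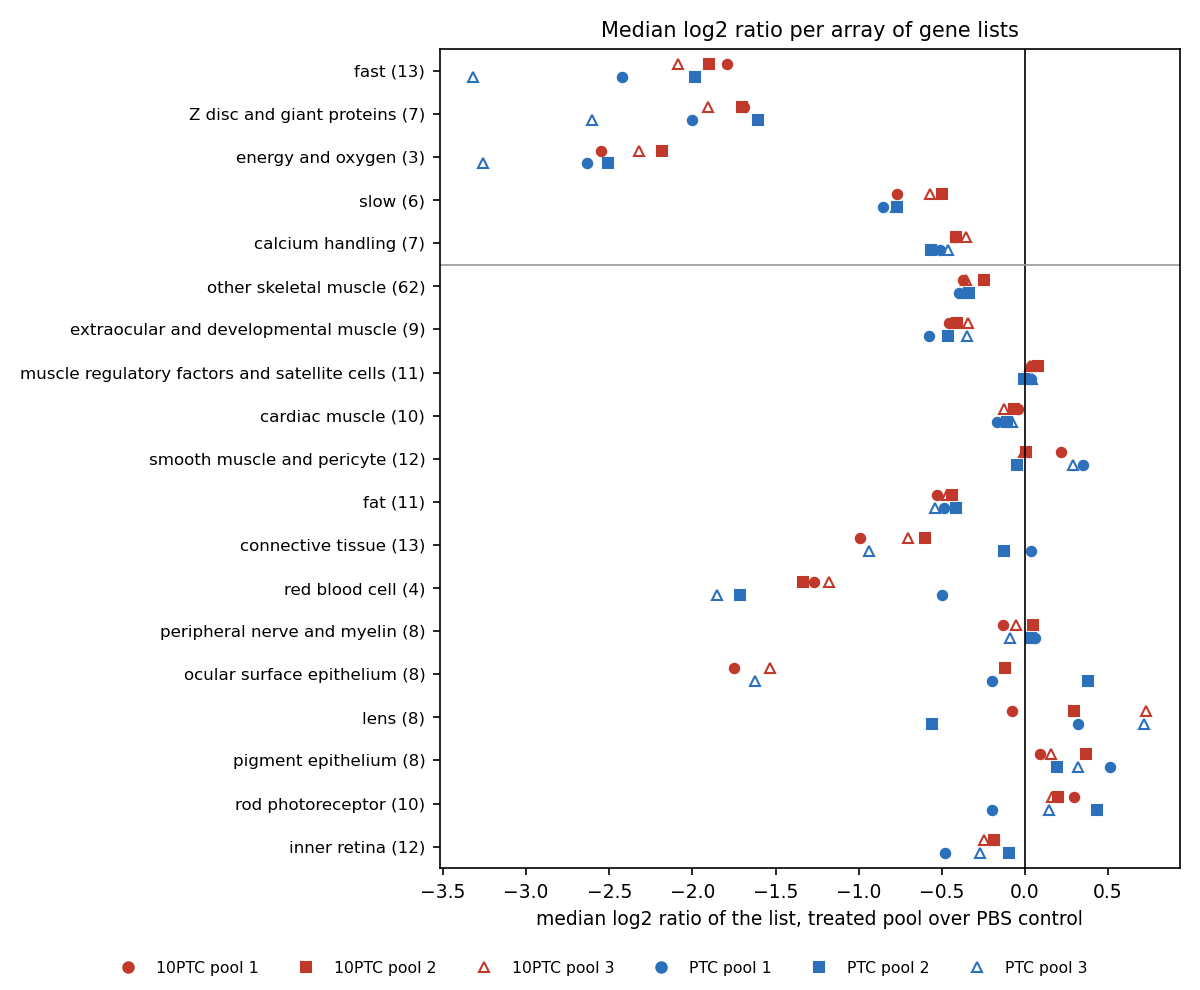
Median log2 ratio on each array (horizontal axis) of 5 groups of members, above the line, and of 14 other gene lists, with the number of genes measured in brackets, red for 10PTC above blue for PTC. The fast, Z disc and energy groups lie left of -1.60 on all 6 arrays, and the ocular surface list splits, with 10PTC replicates 1 and 3 and PTC replicate 3 low.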

How the data were processed

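Each array gave red and green intensity per spot, deposited by the authors as Feature Extraction scanner output (version 10.7.3.1, per the file headers, and 9.3.2.1, per the submitters' processing notes). The deposited files also hold a log10 ratio of red over green per spot, and the authors' deposited series table holds log2 ratios of the same direction (scale and direction found by comparison with the scanner ratios; its column medians ran from -0.08 to 0.04 and its centring is unknown). From the mean intensity and median local background, limma 3.58.1 in R 4.3.3 applied normexp with an offset of 50 and loess within arrays, with control spots at weight 0 and outlier spots left out. Channel intensities were then scaled between arrays (Aquantile). A probe was kept where 3 or more of the 6 arrays read it well above background in Cy3 or in Cy5, and the brightest probe stood for a gene. lmFit and eBayes were run over all 26153 genes, with Benjamini-Hochberg adjustment and a threshold of 0.05. Only this fit and adjustment were also run on simulated log ratios, and the earlier steps were not. Where a gene was not well above background on any array of a group, a bound was computed. On each array it used the larger of the gene's own signal and the lowest signal well above background. For Actn2, Cacng1 and Myh13 at PTC the bound equals the measured fold.

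The members and all gene lists were chosen with earlier results of these data known. All 36 members may be named; of each other list, up to 4 measured genes with the smallest p over both doses are named, plus Myh13 and Myh3. Alternatives covered background, normalization, filters, probe choice, the authors' table, slide, the replicate number as a block, and each array left out. The sources do not say that replicate numbers pair pools across doses.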

Additional observations from a re-analysis of the deposited data

How the results depend on the processing

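No called member changed direction under any of the alternatives run. The median log2 ratio of the members was -2.21 at 10PTC and -2.89 at PTC with the scanner software's processed signals, -2.20 and -2.87 in the authors' deposited table, and -1.88 and -2.45 with an offset of 0, which by construction compresses dim probes less. Under these 3 settings the slow median was -1.18, -1.16 and -0.87 at 10PTC and -1.53, -1.51 and -1.18 at PTC, and the calcium median was -0.51, -0.50 and -0.52 at 10PTC and -0.71, -0.69 and -0.70 at PTC. The fast median at 10PTC was -2.29 with processed signals, -2.27 in the authors' table and -1.83 with median centring, where the calcium median was -0.28. Without background subtraction the PTC medians were -0.86 for slow and -0.54 for calcium genes. With both channels above background on all 6 arrays, 29 members passed, 0 were called higher at either dose, the 10PTC median was -1.80, and the calcium median was -0.51 at 10PTC and -0.69 at PTC. Averaging all probes of a gene gave -1.08 at 10PTC and -1.36 at PTC. With slide as a block, the 10PTC median was -1.19 (fast -1.20), shifted by a slide term that came from the PTC arrays alone. Within slide 1, 0 members were higher at PTC.

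The median difference of 10PTC from PTC was 0.50 with processed signals, 0.49 in the authors' table and 0.48 both with slide as a block and within slide 2. In 2 alternatives chosen after seeing the data it was 0.12 in the Cy5 channel alone and -0.14 in the Cy3 channel alone, which held PBS only. The cause was not tested.

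Leaving out 1 array at a time gave 28 to 31 members lower at 10PTC and 30 to 32 at PTC, with 1 higher at each. The medians ran from -1.61 to -1.44 at 10PTC and -1.997 to -1.71 at PTC for all members, from -2.18 to -1.99 and -3.12 to -2.20 for fast, from -0.67 to -0.53 and -0.82 to -0.77 for slow, and from -0.42 to -0.38 and -0.49 to -0.46 for calcium genes. For 10PTC against PTC, 0 were called and the median ran from 0.12 to 0.33. With the replicate number as a block, 31 members were lower at 10PTC and 31 at PTC. Residuals of same-numbered pools correlated at -0.27, 0.15 and 0.20, and those of differently numbered pools at -0.37 to 0.28. As residuals are centred within each dose, these few values cannot settle whether the pools are paired.

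Over all genes, median centring in place of loess called 5010 lower and 9651 higher at 10PTC and 4236 and 8208 at PTC, against 3471 and 3766 at 10PTC and 4252 and 4407 at PTC with loess. Lower and higher calls at 10PTC were 2201 and 2245 with processed signals, 2027 and 2557 in the authors' table, 2279 and 2528 with the replicate block, 408 and 600 with slide as a block, 582 and 767 without 10PTC replicate 1, and 701 and 863 without 10PTC replicate 3. At PTC they were 127 and 161 within slide 1, 752 and 954 within slide 2, 2468 and 2533 without PTC replicate 3, and 2319 and 2298 with PTC fitted alone.

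Dim probes limit the precision. With an offset of 0, the fold of 2 members at 10PTC and 6 at PTC moved by over 1.5 times. All of them were among the 18 members with the dimmer signals. With processed signals 6 and 13 members moved that far, with the brighter Ckm and Myoz1 among them at PTC. Leaving out background subtraction moved no member that far, with Myoz2 at PTC going from -1.36 to -1.49.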
